A study of Homo sapiens with 4 samples.

Results

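SRF and 9 genes of the actin cytoskeleton were followed in A673, an established human Ewing sarcoma cell line. The genes are SRF itself, ACTA2, ACTB, ACTG1, TAGLN, CNN1, CNN2, TPM1, TPM2 and MYL9, chosen by name as SRF and its actin cytoskeleton targets and matched by Ensembl ID, which gave 10 of 60617 genes in the count table. The cells of 2 libraries had been kept for 24 h in DMSO, the solvent, and those of the other 2 for 24 h in 1 µM CBL0137. The compound belongs to the curaxins, small molecules that bind DNA and trap FACT, a histone chaperone, on chromatin. All libraries come from a single line with no other allele or agent named, and the labels do not say whether replicates were separate cultures, and the p-values below therefore rest on the spread between these libraries alone, which may be technical.

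SRF is a transcription factor that binds, as a dimer, a short A/T-rich element called the CArG box. Its partners fall into the myocardin-related factors MRTFA and MRTFB, which monomeric (G-) actin holds out of the nucleus until it is built into filaments, and the ternary complex factors ELK1, ELK3 and ELK4, which answer to ERK signalling. The first branch drives genes of actin filaments, contraction and adhesion, and is best known from smooth muscle and activated fibroblasts, while the ternary complex factors drive immediate early genes such as FOS and EGR1.

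The element is shown here because it is the sequence that SRF binds. RefSeq promoter windows of GRCh38.p14, from 250 bases before to 50 after each annotated start, were at hand for 7 of the 10 genes. ACTB, TAGLN and MYL9 had no entry. The exact CArG box, with a core of 6 A or T bases and the same on both strands, was found upstream of SRF (a pair of boxes), ACTG1 and CNN2, and 2 sites with 1 other base in the core were found upstream of the downstream one of 2 annotated ACTA2 starts. Capitals mark these boxes and sites below, and each sequence reads 5′ to 3′ along the gene's own strand.

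SRF, chr6:43171214-43171268, plus strand, positions -55 to -1 from the start: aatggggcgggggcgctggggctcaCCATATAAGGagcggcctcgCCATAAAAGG

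ACTA2, chr10:88952810-88952919, minus strand, positions -146 to -37 from the start: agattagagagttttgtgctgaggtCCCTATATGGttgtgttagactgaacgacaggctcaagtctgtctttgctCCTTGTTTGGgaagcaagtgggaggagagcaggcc

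ACTG1, chr17:81512859-81512918, minus strand, positions -119 to -60 from the start: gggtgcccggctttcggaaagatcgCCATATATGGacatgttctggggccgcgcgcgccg

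CNN2, chr19:1026494-1026553, plus strand, positions -114 to -55 from the start: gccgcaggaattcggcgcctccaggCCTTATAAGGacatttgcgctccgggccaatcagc

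Of all 35116 promoter windows of this length, 1.29% held an exact CArG box, and by gene it was 438 of 27305 genes, against 3 of the 7 matched genes here. The windows of CNN1, TPM1 and TPM2, and the other annotated starts of SRF and ACTA2, held neither form. A match of letters describes the window only, and no binding was measured. The genes were chosen as SRF targets, so their share is a description and not independent evidence.

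**Figure D1:**
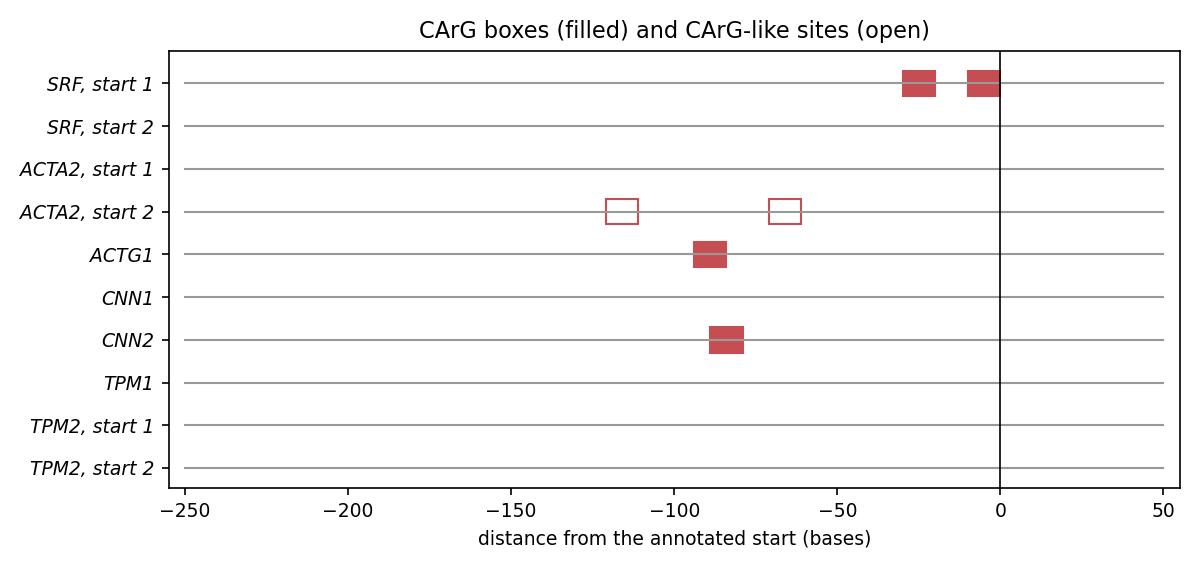
CArG boxes (filled) and sites with 1 other base in the core (open) in the RefSeq promoter windows of 7 of the genes, by distance in bases from each annotated start; each line is one window from 250 bases before to 50 after a start. The boxes of ACTG1 and CNN2 begin at -94 and -89, and those of SRF at -30 and -10.

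Messenger RNA was counted to a depth of 20483714 to 23373554 reads over genes per library. Reads in the HTSeq summary rows, which name no gene, made up 23.7% to 24.8% of all reads, among them 9.19% to 9.50% that fell on more than one gene and 6.43% to 7.78% with no unique alignment. Mitochondrially encoded transcripts took 5.82% to 5.92% of gene counts. All 8 Ewing sarcoma markers listed were detected in every library, among them the surface protein CD99 at a deposited FPKM of 923 to 965, the fusion target NR0B1 at 66.5 to 86.6 and the transcription factor NKX2-2 at 30.8 to 38.3. FPKM, fragments scaled to gene length and library depth, is the scale used here to compare genes with each other. CPM, counts scaled to library depth with TMM factors, is used to compare libraries.

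The cytoskeletal actins dominated the set. The mean FPKM in DMSO was 1081 ± 41.9 for ACTB and 564 ± 20.9 for ACTG1, which encode the beta and gamma actins of every cell (mean ± SD, n = 2 per group here and below). The 2 next levels were far lower, 46.2 ± 1.46 for TPM2 and 41.7 ± 0.1003 for CNN2. ACTA2, the smooth muscle alpha actin, followed at 18.5 ± 2.02, then TPM1 at 12.5 ± 0.0208 and SRF at 9.91 ± 0.277. The lowest levels were those of TAGLN at 2.67 ± 1.07, CNN1 at 0.275 ± 0.0939 and MYL9 at 0.109 ± 0.0385. That order was the same in CBL0137, and no neighbours in it overlapped within either group.

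After CBL0137, only TAGLN passed both limits used for a call, an edgeR adjusted p (Benjamini-Hochberg over 17309 tested genes) under 0.05 and a fold change above 1.5. All 10 genes passed the count filter, 1 was called higher, 0 lower and 9 were not called, against 9.61% of all tested genes called, 6.88% higher and 2.73% lower. Without the fold limit 5 of the 10 passed as higher (TAGLN, CNN2, TPM2, TPM1 and ACTG1) and 0 as lower, against 17.5% and 19.0% of all tested genes. That count was 3 with DESeq2, which left out ACTG1 (adjusted p = 0.201) and TPM1 (adjusted p = 0.134), 3 of 8 tested on either FPKM scale, and 3 with CBL0137 replicate 2 left out. On the FPKM scales the genes that passed were CNN2, TPM2 and TPM1, without TAGLN. With upper-quartile factors, and with library size as the sole scaling, 6 passed, ACTB being the added gene. The median log2 fold change was 0.31 over the 10 genes and 0.003 over all tested genes. In bulk RNA, a change in the share of cells and a change of RNA per cell cannot be told apart. By CPM, both CBL0137 libraries lay above both DMSO libraries for 6 of the 10 genes and below for 0, against 33.5% and 33.4% of all tested genes, and the other 4 overlapped. The 10 genes together took 0.464% and 0.447% of gene counts in DMSO and 0.494% and 0.518% in CBL0137, before TMM scaling. By TMM-scaled CPM they summed to 4750 and 4572 in DMSO and 4815 and 5108 in CBL0137. Most of either sum was ACTB and ACTG1, and ACTB overlapped between groups.

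**Figure D2:**
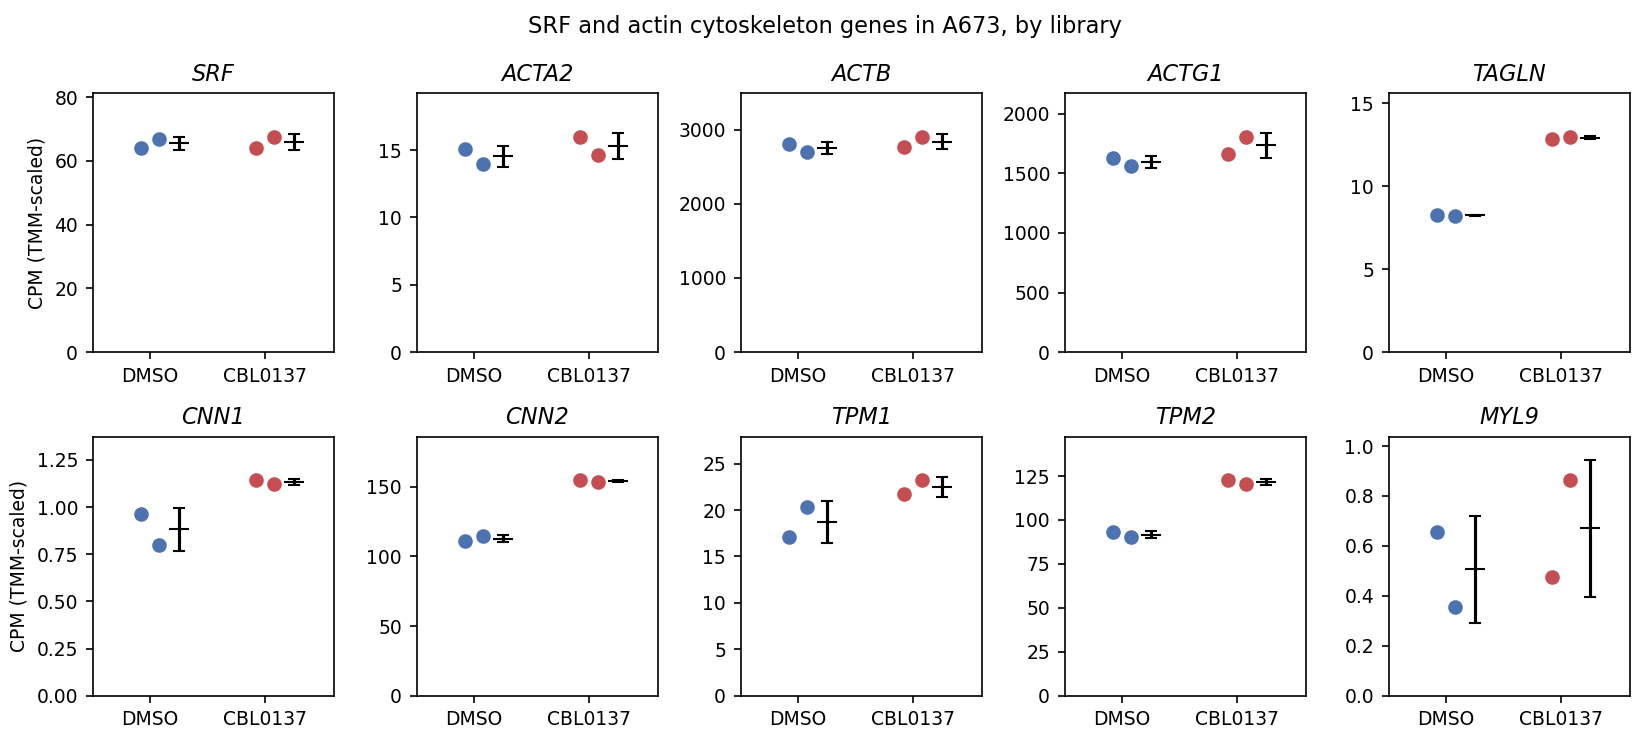
CPM after TMM scaling of each gene in each library, 2 DMSO (blue) and 2 CBL0137 (red), with the mean and SD of each group in black; every axis starts at 0. TAGLN, CNN2 and TPM2 are clearly apart between groups (8.22 to 8.27 against 12.9 to 13.0 CPM for TAGLN), while the libraries of SRF, ACTA2 and ACTB overlap.

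SRF (ENSG00000112658, chromosome 6, 43139007 to 43149244 in GRCh37, also called hg19, the build of all positions from here on) measured 64.1 and 66.8 CPM in DMSO and 64.2 and 67.6 CPM in CBL0137. The groups overlapped almost completely. Its log2 fold change was 0.01 ± 0.05 (SE), with a 95% interval of -0.10 to 0.12 and an edgeR adjusted p of 0.905. Its sign turned when no count filter was applied (-0.0011), and it was -0.02 with DMSO replicate 1 left out and -0.03 with CBL0137 replicate 2 left out. Its promoter holds the pair of CArG boxes printed above, and SRF is itself a known SRF target. Over the 4 libraries, genes near to its pattern included CSRP2, a LIM-domain protein and itself a known SRF target, and NOL10, a nucleolar protein. Their Euclidean distances in centred log2 CPM were 0.00900 and 0.00930, the smallest among 11338 genes averaging 5 CPM or more. The order of 4 values with so little spread is a description only.

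ACTB (ENSG00000075624, chromosome 7, 5566040 to 5603533) measured 2809 and 2694 CPM in DMSO and 2762 and 2905 CPM in CBL0137. Those values overlapped, and the log2 fold change was 0.04 ± 0.03 with a 95% interval of -0.02 to 0.10 (edgeR adjusted p = 0.293). ACTG1 (ENSG00000184009, chromosome 17, 79476439 to 79490873) measured 1630 and 1563 CPM in DMSO and 1659 and 1808 CPM in CBL0137. Both CBL0137 libraries lay above both DMSO libraries, with CBL0137 replicate 2 the highest. Its log2 fold change was 0.12 ± 0.03 (edgeR adjusted p = 0.00817), under the fold limit. The edgeR adjusted p of ACTG1 was 0.0958 without CBL0137 replicate 2 and 0.187 without DMSO replicate 2. That of ACTB was 0.00336 without CBL0137 replicate 1, 0.00747 with upper-quartile factors and 0.00191 with library size as the sole scaling.

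ACTA2 (ENSG00000107796, chromosome 10, 90694831 to 90751096), the alpha actin of vascular smooth muscle and myofibroblasts, measured 15.1 and 14.0 CPM in DMSO and 16.0 and 14.6 CPM in CBL0137. The groups overlapped, with a log2 fold change of 0.07 ± 0.10, a 95% interval of -0.14 to 0.29 and an edgeR adjusted p of 0.626. Its deposited FPKM was 19.98 and 17.1 in DMSO and 20.2 and 22.0 in CBL0137, with both CBL0137 libraries the higher, and stood on few counted reads. In DMSO replicate 1, 1 FPKM of ACTA2 stood for 17.3 counted reads, against 151 for SRF and a median of 102 over 10999 tested protein-coding genes, of which 4.61% had fewer. The annotated span of ACTA2 overlaps FAS, STAMBPL1 and ACTA2-AS1 on the other strand, and the sources used here do not say whether the counting used strand. It also overlaps an unnamed long non-coding RNA gene on its own strand, with 24 and 26 reads in DMSO and 22 and 22 in CBL0137. The part of shared stretches in these values was not tested.

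By FPKM, ACTB made up 65.0% of the 6 actin genes in both DMSO libraries, and 64.4% and 62.7% in CBL0137 replicates 1 and 2. ACTG1 made up 33.9% and 34.0% in DMSO and 34.4% and 36.1% in CBL0137, and the shares of neither gene overlapped between groups. As these genes hold nearly all of the sum, their shares are near complements. By CPM, the groups were apart for 33.5% (higher) and 33.4% (lower) of all tested genes. ACTA2 kept between 1.06% and 1.18% in all 4 libraries, and the muscle actins ACTG2, ACTA1 and ACTC1 held at most 0.00775% each. The FPKM ratio of ACTB to ACTG1 was 1.92 and 1.91 in DMSO and 1.87 and 1.74 in CBL0137. With 2 libraries per group an exact permutation test of such a share cannot give a two-sided p below 0.333, so no test was made.

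TAGLN (ENSG00000149591, chromosome 11, 117070086 to 117078180) encodes transgelin or SM22, an actin-bundling protein and a classic SRF target of smooth muscle. It measured 8.27 and 8.22 CPM in DMSO and 12.9 and 13.0 CPM in CBL0137, from 189, 185, 270 and 301 reads. The groups did not overlap, and TAGLN rose 1.57-fold. With so few reads and 2 libraries per group, the small gap between replicates is a weak measure of the spread. Its log2 fold change was 0.65 ± 0.12 with a 95% interval of 0.40 to 0.89 (edgeR adjusted p = 0.000109), so the interval reaches below the fold limit. The deposited FPKM did not show this rise. It was 1.92 and 3.43 in DMSO and 2.82 and 2.83 in CBL0137, so that the groups overlapped, and limma-trend on log2(FPKM + 1) gave 0.09 (adjusted p = 0.8). TAGLN overlaps PCSK7, a gene on the opposite strand at 117075053 to 117103241, which measured 0.35 on the log2 scale (edgeR adjusted p = 5.4e-05). Reads of the shared stretch cannot be assigned without strand, and their part in the TAGLN result was not tested.

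CNN2 (ENSG00000064666, chromosome 19, 1026585 to 1039067) encodes calponin 2, an actin-binding protein found in many cell types. It measured 111 and 114 CPM in DMSO and 155 and 154 CPM in CBL0137. The gap between groups was many times that between replicates, yet the 1.37-fold difference stayed under the fold limit, at 0.45 ± 0.04 on the log2 scale (edgeR adjusted p = 5.6e-09). Its FPKM showed the same order, 41.6 and 41.8 in DMSO against 62.2 and 59.2 in CBL0137. CNN1 (ENSG00000130176, chromosome 19, 11649582 to 11661138), the calponin of smooth muscle, had only 22 and 18 reads in DMSO and 24 and 26 in CBL0137. At that depth its log2 fold change of 0.36 had a 95% interval of -0.42 to 1.14 (edgeR adjusted p = 0.495), so a difference was not detectable.

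CNN3, the acidic calponin and a gene of the wider target list, measured 207 and 218 CPM in DMSO and 181 and 187 CPM in CBL0137 (log2 fold change -0.21 ± 0.04, edgeR adjusted p = 0.000196). By FPKM, CNN2 made up 38.1% and 37.3% of the 3 calponin genes in DMSO and 50.2% and 47.8% in CBL0137. CNN3 made up 61.7% and 62.4% in DMSO and 49.4% and 51.8% in CBL0137. The shares of neither gene overlapped between groups. With CNN1 at no more than 0.415%, these 2 shares are near complements and count as a single observation. By CPM, the groups were apart for 33.5% (higher) and 33.4% (lower) of all tested genes.

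Both tropomyosins of the set, coiled coils that lie along actin filaments, passed the adjusted p under the fold limit. TPM2 (ENSG00000198467, chromosome 9, 35681989 to 35690053) measured 93.3 and 90.2 CPM in DMSO and 123 and 120.5 CPM in CBL0137. The groups were well apart, at 0.41 ± 0.05 on the log2 scale (edgeR adjusted p = 1.1e-07). Its FPKM went from 45.2 and 47.3 to 71.5 and 71.6, and limma-trend on log2(FPKM + 1) gave 0.62 (adjusted p = 0.0137), past the fold limit. TPM1 (ENSG00000140416, chromosome 15, 63334819 to 63364114) measured 17.1 and 20.3 CPM in DMSO and 21.8 and 23.2 CPM in CBL0137. Its groups were apart by less than the DMSO libraries differed, at 0.27 ± 0.09 on the log2 scale (edgeR adjusted p = 0.0281). The log2 fold change of TPM1 was 0.14 with DMSO replicate 1 left out (edgeR adjusted p = 0.384) and 0.22 with CBL0137 replicate 2 left out (edgeR adjusted p = 0.147). TPM1 also had few counted reads for its FPKM, 31.2 per FPKM in DMSO replicate 1.

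Among the 4 tropomyosin genes, TPM2 made up 11.8% and 12.3% of the summed FPKM in DMSO and 17.8% and 16.4% in CBL0137. TPM4, the largest part, made up 51.2% and 51.6% in DMSO and 43.4% and 45.3% in CBL0137. By counts, TPM4 measured -0.06 ± 0.03 and TPM3 0.11 ± 0.03 on the log2 scale, with edgeR adjusted p of 0.132 and 0.0176. MYL9 (ENSG00000101335, chromosome 20, 35169900 to 35179850), the regulatory light chain of smooth muscle and non-muscle myosin II, had 15 and 8 reads in DMSO and 10 and 20 in CBL0137. Its groups overlapped and its 95% interval ran from -0.64 to 1.46, so no difference could be detected at this depth. The span of MYL9 overlaps DLGAP4-AS1, a long non-coding RNA gene on the other strand. That gene had 23 and 32 reads in DMSO and 47 and 22 in CBL0137, and the part of the shared stretch was not tested.

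**Figure D3:**
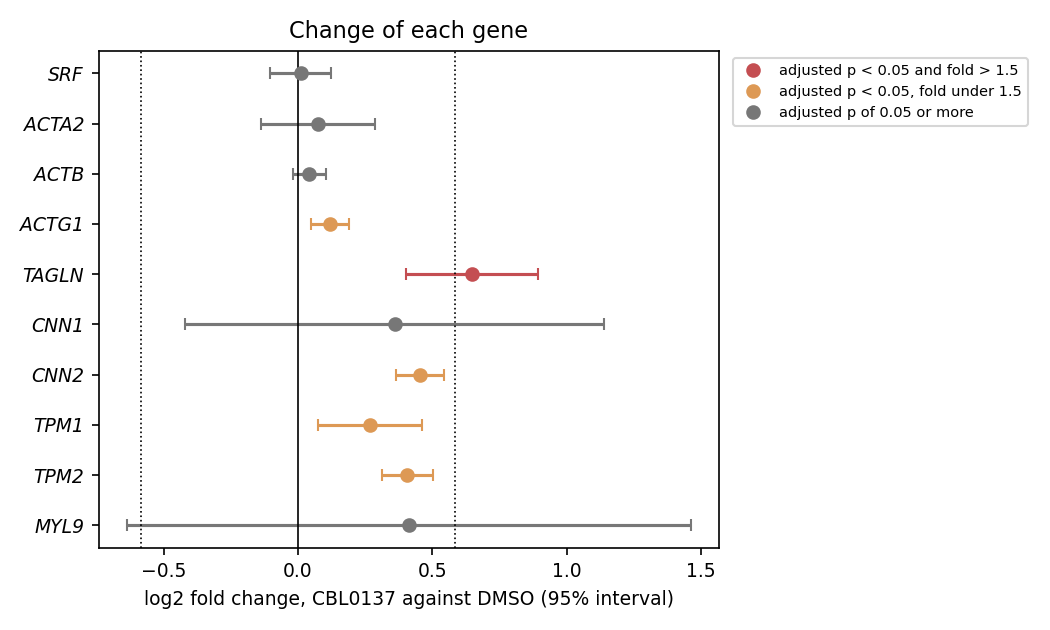
Log2 fold change of each gene, CBL0137 against DMSO, with its 95% interval from the quasi-likelihood fit; dotted lines mark the 1.5-fold limit. TAGLN lies past the limit at 0.65, CNN2 and TPM2 lie under it at 0.45 and 0.41 with narrow intervals, SRF sits at 0.01, and CNN1 and MYL9 have the widest intervals.

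**Figure D4:**
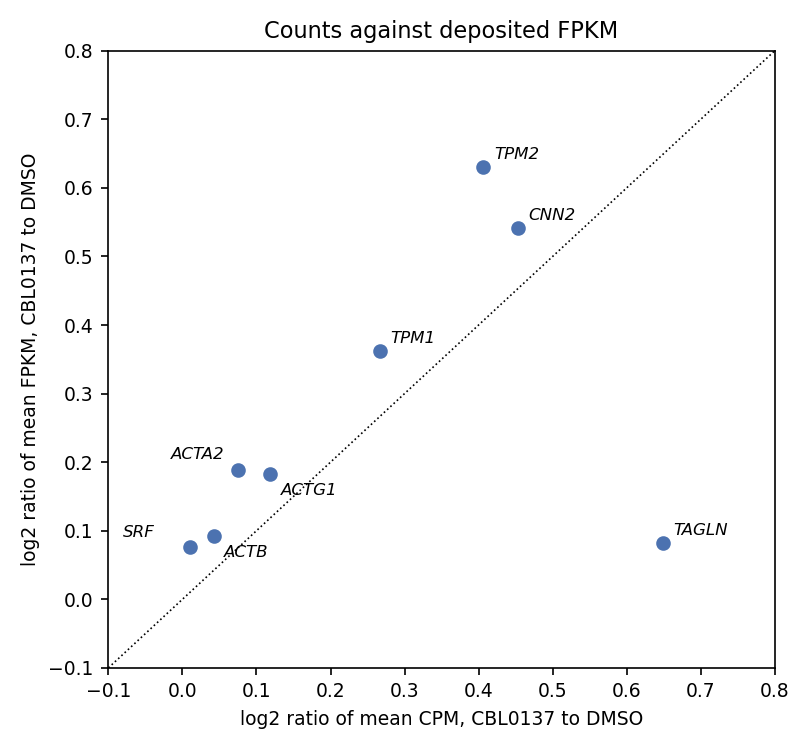
Log2 ratio of group means by CPM (horizontal axis) and by the deposited FPKM (vertical axis) for the 8 genes with a mean FPKM above 1; the dotted line is equality. TAGLN is the one gene far below the line, at 0.65 by CPM and 0.08 by FPKM, and TPM2 lies above it at 0.41 and 0.63.

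The cofactors of SRF were next compared. Of 7 genes, 6 passed the count filter, 0 rose, 0 fell and 6 were not called. At an unadjusted p under 0.05 there were 2 of the 6, against 7757 of all 17309 tested genes. DESeq2 and limma-voom also called 0. MRTFA, the actin-sensing coactivator, measured 48.8 and 45.1 CPM in DMSO and 40.5 and 45.6 CPM in CBL0137 (-0.12 ± 0.07, edgeR adjusted p = 0.164). MRTFB measured 51.4 and 51.7 CPM in DMSO and 54.8 and 58.2 CPM in CBL0137 (0.13 ± 0.06, edgeR adjusted p = 0.08). SCAI, which restrains the myocardin-related factors, was the one cofactor gene past the adjusted p alone, at 24.0 and 25.5 CPM in DMSO and 21.5 and 18.8 CPM in CBL0137 (-0.30 ± 0.09, edgeR adjusted p = 0.00954). The adjusted p of SCAI was 0.0641 with DESeq2, 0.245 on log2(FPKM + 1), 0.0652 with DMSO replicate 2 left out and 0.144 with CBL0137 replicate 2 left out. The ternary complex factors ELK1, ELK3 and ELK4 measured -0.07 ± 0.05, 0.09 ± 0.05 and -0.03 ± 0.05 on the log2 scale. MYOCD, the cofactor of smooth and cardiac muscle, had no read in any library, which allows at most 0.143 CPM in the shallowest of them (3 counts, counting error only).

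Of 26 other cytoskeletal genes known as SRF targets, all passed the count filter and 0 passed both limits with edgeR, likewise with DESeq2 and limma-voom. At an unadjusted p under 0.05 there were 16, against 7757 of all 17309 tested genes. Without the fold limit 13 were higher and 2 lower, against the 17.5% and 19.0% given above, and the median log2 fold change was 0.11. ZYX, zyxin of focal adhesions, measured 73.6 and 79.4 CPM in DMSO and 111 and 104 CPM in CBL0137 (0.49 ± 0.05, edgeR adjusted p = 3.4e-08). VCL, vinculin, which links integrins to actin, measured 522 and 532 CPM in DMSO and 698 and 714 CPM in CBL0137 (0.42 ± 0.03, edgeR adjusted p = 1.1e-10). DSTN, the actin-severing destrin, measured 0.40 ± 0.04 and MYH9, the heavy chain of non-muscle myosin II, 0.30 ± 0.03. These 4 were named for having the smallest adjusted p of the list. By CPM, both CBL0137 libraries lay above both DMSO libraries for 15 of the 26 genes, these 4 among them. They lay below for 4 and overlapped for 7, and the shares over all tested genes were 33.5% higher and 33.4% lower. On log2(FPKM + 1), limma-trend called 1 of the 26, ZYX, as higher (0.63). An exact CArG box was found in the promoter windows of 8 of them, among them ACTN1, FLNA, TGFB1I1 and MYLK.

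The ternary complex branch was read from 9 immediate early genes, of which EGR3 rose, 0 fell and 8 were not called. Over all tested genes, 6.88% were called higher and 2.73% lower. EGR3 rested on 18, 12, 31 and 43 reads in DMSO replicate 1, DMSO replicate 2, CBL0137 replicate 1 and CBL0137 replicate 2. Its call was lost with DESeq2 (adjusted p = 0.0533) and with either DMSO replicate 2 (0.0795) or CBL0137 replicate 2 (0.0746) left out. EGR1, IER2, JUNB and EGR2 measured 0.58 ± 0.07, 0.51 ± 0.07, 0.46 ± 0.07 and 0.36 ± 0.05 on the log2 scale, all under the fold limit, with edgeR adjusted p from 4.3e-07 to 1.6e-05. EGR1 passed that limit with a 1 CPM filter (0.60), with upper-quartile factors (0.63), with library size as the sole scaling (0.64), with CBL0137 replicate 1 left out (0.68) and on both FPKM scales (0.59 and 0.65). FOS measured 0.18 ± 0.08 and MCL1 0.07 ± 0.04, while FOSB measured -0.62 ± 0.32 and NR4A1 -0.16 ± 0.12. Their edgeR adjusted p ran from 0.0855 to 0.294. By CPM, both CBL0137 libraries lay above both DMSO libraries for 7 of the 9 early genes and below for FOSB and NR4A1. The shares over all tested genes were 33.5% and 33.4%. FOSB had 37 and 42 reads in DMSO and 25 and 25 in CBL0137. The deposited FPKM of NR4A1 went the other way, at 1.67 and 2.06 in DMSO and 2.45 and 3.20 in CBL0137. For FOSB and EGR3 the FPKM overlapped between groups.

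Of 7 markers of smooth muscle outside the set 4 passed the count filter, SMTN fell, 0 rose and 3 were not called. Among all tested genes, 2.73% were called lower and 6.88% higher. SMTN, smoothelin of contractile smooth muscle, measured 29.1 and 29.7 CPM in DMSO and 13.2 and 14.6 CPM in CBL0137 (log2 fold change -1.08 ± 0.09, edgeR adjusted p = 4.9e-10). The summed level of the list was 32.6 and 33.8 CPM in DMSO and 17.0 and 18.1 CPM in CBL0137. Most of that was SMTN, and the other 6 genes summed to 3.50 and 4.09 CPM in DMSO and 3.81 and 3.54 CPM in CBL0137. LMOD1, the leiomodin of smooth muscle, and SYNPO2, an actin-binding protein, measured -0.18 ± 0.40 and 0.10 ± 0.38 on the log2 scale. The defining myosin heavy chain MYH11 had 28 to 42 reads per library, ACTG2 1 to 5 and DES 0 to 3, and MYOCD was at 0. An exact CArG box was found in the promoter windows of SMTN and ACTG2, 2 of the 4 matched genes of this list.

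Of 8 fibroblast markers, which also include matrix and receptor genes of sarcoma cells, 6 passed the filter, 4 rose, 0 fell and 2 were not called. The shares called over all tested genes were 6.88% higher and 2.73% lower. COL1A1 (0.79 ± 0.04), THY1 (0.72 ± 0.04), PDGFRB (0.66 ± 0.05) and DCN (0.72 ± 0.24) rose beside TAGLN. PDGFRB lost its call with glmTreat (adjusted p = 0.322). The call of DCN was lost with DESeq2 (adjusted p = 0.124), with glmTreat, and with DMSO replicate 2 (0.113) or CBL0137 replicate 2 (0.196) left out. The summed level of the list was 549 and 515 CPM in DMSO and 864 and 904 CPM in CBL0137. None of the 8 was at 0 in every library, although LUM had 6 to 9 reads, POSTN 2 to 10 and PDGFRA 4 to 13. Their part in the TAGLN, CNN2 and TPM2 results was not tested.

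**Figure D5:**
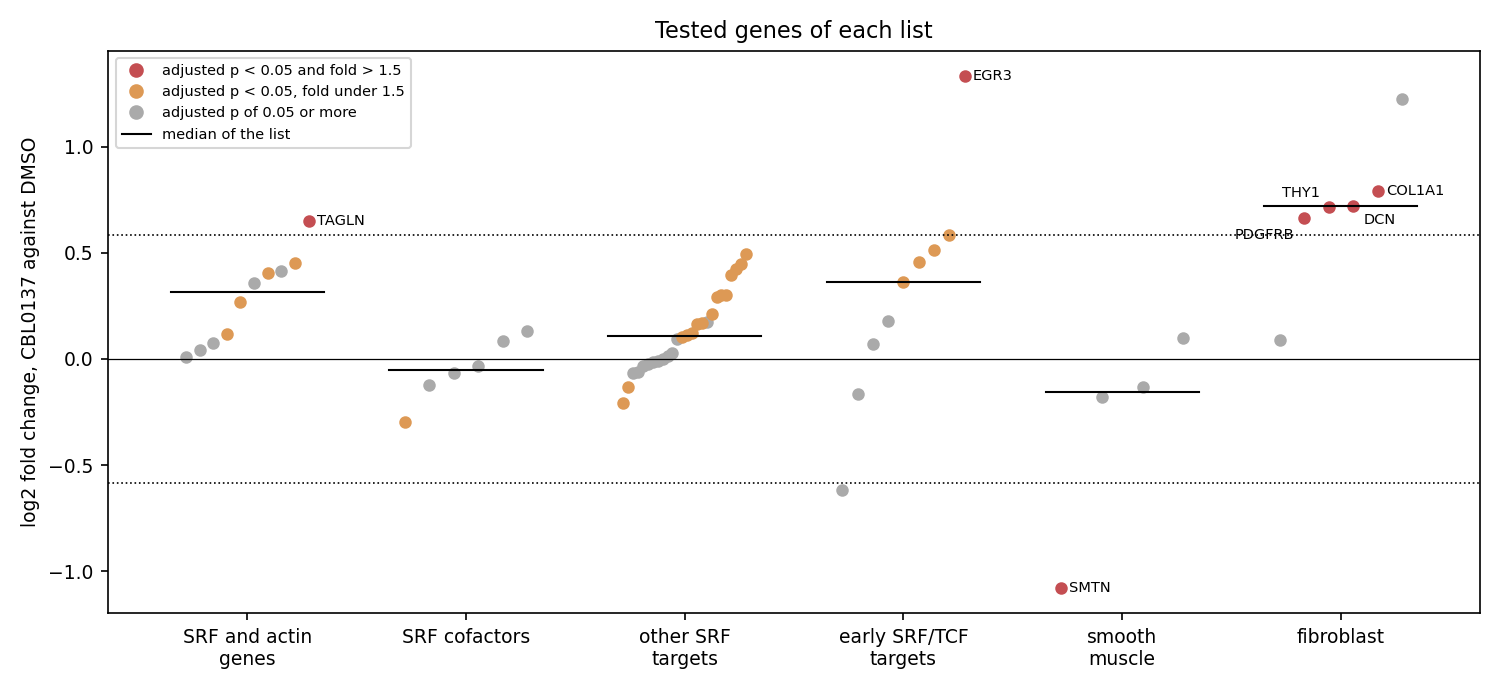
Log2 fold change of each tested gene by list, CBL0137 against DMSO; colours mark the adjusted p and the 1.5-fold limit (dotted), and black bars are medians. The SRF and actin genes have a median of 0.31 and the other SRF targets one of 0.11, while SMTN at -1.08 is the lowest point of the smooth muscle list.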

How the data were processed

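The 4 RNA-seq libraries of A673 cells were grouped by their titles. Trim Galore, HISAT2, HTSeq 0.11.1 and the builds hg19 and mm10 are named in the submitters' processing notes, hg19 also in the series' design text as the mapping reference, and the deposited values include unnormalized counts per gene from the authors. The deposited FPKM were computed by the authors from reads, gene length and depth, per the series' design text, and neither tool nor annotation is given in the sources used here. Left out were 6 of the 60623 table rows, which hold no gene and 23.7% to 24.8% of reads. IDs were matched to symbols in GENCODE release 44 lifted to GRCh37.

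CBL0137 was compared with DMSO by edgeR 4.0.16 (R 4.3.3) with TMM factors, the quasi-likelihood test and filterByExpr (min.count 10), with Benjamini-Hochberg adjustment. The SE is the log2 fold change divided by the square root of F. The test was tried on simulated data. Alternatives used limma 3.58.1, DESeq2 1.42.0 and other factors, filters, limits and libraries. Text names the 10 genes, all SRF cofactors, and up to 4 genes of smallest adjusted p plus every called gene from each of 8 lists. One further list and one gene named by its likeness to SRF are not reported here. CNN3, TPM3, TPM4, FOS, FOSB, MCL1, NR4A1 and genes given by reads or promoter boxes alone were added after values were seen. Genes and lists were chosen with earlier results of these data known.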

Additional observations from a re-analysis of the deposited data

How the results depend on the processing

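SRF changed sign with no count filter (-0.0011). With a library left out SRF ranged from -0.030 to 0.044 and MYL9 from -0.090 to 0.91. TAGLN kept its call except at a fold limit of 2 and under 3 other alternatives. It fell short with glmTreat (0.65, adjusted p = 1) and on log2(FPKM + 1) (0.091) and log2(FPKM + 0.1) (0.13), while TPM2 passed on these FPKM scales (0.62 and 0.63). Fold limits aside, no other gene of the 10 changed its call. Calls among the 10 genes numbered 0 with glmTreat or a fold limit of 2, and 5 with no fold limit. Over all genes, 1191 higher and 472 lower calls became 295 and 104 with glmTreat, 388 and 189 on log2(FPKM + 1), 489 and 237 on log2(FPKM + 0.1), 605 and 131 at a fold limit of 2, and 3022 and 3292 with none. DESeq2 called 709 higher and 344 lower. Library size alone gave 1443 higher and 365 lower, and upper-quartile factors 1389 and 388.

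With no fold limit, 1 cofactor was lower, 13 other SRF targets higher and 2 lower, 5 early genes higher, 2 Ewing markers higher and 2 lower, and 3 mitochondrial genes higher and 6 lower. At a fold limit of 2, 0 striated muscle markers and 0 fibroblast markers were called, and glmTreat called 2 fibroblast markers, COL1A1 and THY1. The early genes called higher numbered 2 with the filter of 1 CPM, upper-quartile factors or library size alone, 0 with glmTreat and DESeq2, and 0 to 2 with a library left out. Both FPKM scales called 1 other SRF target. The share of windows with a CArG box was 8.13% with 1 other base allowed in the core.

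Deviations from the group means in DMSO replicate 1 and CBL0137 replicate 1 had a correlation of -0.000133 over genes. At 2 libraries per group, that value cannot tell whether libraries with the same replicate number shared a batch. Adding the replicate block left 1128 genes higher and 448 lower, with TAGLN at 0.65. CNN1 was under the FPKM filter, and MYL9 under that and the filter of 1 CPM. With a library left out, the single library of that group is taken to vary as the other group does. Depth limits what CNN1 and MYL9 can show.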

Other observations

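Of 10 striated muscle markers, 2 passed the count filter and 1 was called higher, against 6.88% of all tested genes. TNNT1, the slow skeletal troponin T, rose from 24.0 and 23.3 CPM in DMSO to 40.6 and 41.7 CPM in CBL0137 (log2 fold change 0.80 ± 0.07, edgeR adjusted p = 2.2e-09), and the embryonic myosin heavy chain MYH3 measured 0.11 ± 0.26. The summed level of the list was 26.6 and 25.9 CPM in DMSO and 43.5 and 44.6 CPM in CBL0137, nearly all of it TNNT1. The myogenic factors MYOD1, MYOG and MYF5 had no read in any library.

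TAGLN2, the non-muscle transgelin, measured 302 and 303 CPM in DMSO and 337 and 363 CPM in CBL0137 (0.21 ± 0.04, edgeR adjusted p = 8.7e-05). The thymosins TMSB4X and TMSB10, which hold G-actin, measured 0.16 ± 0.03 and 0.15 ± 0.03 on the log2 scale, while the profilin PFN1 measured -0.07 ± 0.04 (edgeR adjusted p = 0.134). TAGLN2, TMSB4X, TMSB10 and PFN1 were picked with their values known.

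Processed copies of the actins carried few of the counted reads. The 12 named ACTB pseudogenes summed to 33 and 31 reads in DMSO and 16 and 18 in CBL0137, at most 0.0514% of the ACTB count. The 21 named ACTG1 pseudogenes summed to 59 and 72 reads in DMSO and 87 and 86 in CBL0137, at most 0.250% of the ACTG1 count. Reads without a unique alignment are in none of these sums.

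Ewing sarcoma markers were not called in either direction, against 9.61% of all tested genes called. NR0B1 measured 0.29 ± 0.04, NKX2-2 0.20 ± 0.06, PRKCB -0.23 ± 0.03 and CCND1 -0.07 ± 0.03 on the log2 scale. None of 15 genes of the mitochondrial genome passed both limits, by edgeR (0 calls, 10 at an unadjusted p under 0.05) or with DESeq2 or limma-voom. At that unadjusted limit, 7757 of all 17309 tested genes passed. MT-RNR2 measured -0.29 ± 0.02, MT-ND1 0.34 ± 0.03, MT-CYB 0.12 ± 0.03 and MT-ND4 -0.10 ± 0.02 on the log2 scale. The summed level of the 15 genes was 59953 and 60014 CPM in DMSO and 57632 and 57197 CPM in CBL0137. As a share of gene counts, before TMM scaling, it was 5.861% and 5.867% in DMSO and 5.908% and 5.806% in CBL0137. Those shares overlapped between groups.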
